A study of Mus musculus with 6 samples.

Results

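Wnt and BMP signalling genes were examined in mouse dorsal pancreas, taken at embryonic day 18.5. The list held 56 genes, chosen by symbol for their place in these pathways: Wnt ligands, Wnt receptors, secreted Wnt antagonists, R-spondins and their receptors, Wnt effectors and targets, and the ligands, receptors, antagonists and targets of BMP signalling. Of these, 50 were found among the 14681 genes of the authors' deposited table, spread over 18 chromosomes; Fzd6, Lrp6, Sfrp5, Rspo3, Axin2 and Grem1 were not analysed here. The samples were 3 control and 3 knockout dorsal pancreases from C57BL/6 embryos. The knockout, named Dpy30∆P in the labels, removes Dpy30, a core subunit of the COMPASS complexes that methylate lysine 4 of histone H3. The labels give neither the driver of the deletion nor the genotype of the controls; the deposited table is named for Pdx1, whose promoter is widely used to drive Cre in pancreatic epithelium. Mesenchyme, vessels and blood were dissected along with the epithelium.

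Wnt proteins are secreted, lipid-modified ligands that bind Frizzled receptors with the co-receptors Lrp5 and Lrp6. In the canonical branch this stabilises beta-catenin, which activates genes together with TCF/LEF factors. BMPs are ligands of the TGF-beta superfamily that bind type I and type II kinase receptors and act through SMAD proteins, with the Id genes as classical targets. Both pathways are restrained outside the cell by secreted proteins that hold the ligand or block the receptor. In the pancreas, the mesenchyme around the epithelium is a known source of both kinds of ligand, and the balance of these signals shapes growth and the exocrine and endocrine fates.

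The table holds 1 mean normalized count per gene over all 6 libraries and no value per library, so the values of single samples and their overlap between groups cannot be shown, and the depth of each library is unknown. That 3 embryos of each kind were dissected is the only statement on replication. Whether each library came from its own embryo is not stated. The p-values cover the spread of these samples, which may lie between embryos or be technical. The numerator of the fold changes is not stated either. Negative values are read here as lower in the knockout, on the usual convention, and every direction would turn under the opposite one. Dpy30 itself could not settle this: its mean count was 29.4, and its deposited log2 fold change in the authors' deposited table was 0.01 ± 0.22 (posterior SD; p = 0.766). Acinar markers (13 of 14 in the table, summed mean count 375737) showed that the tissue was pancreas. Liver markers (10 of 10, summed 11476) and markers of intestine, stomach and spleen (6 of 8, summed 366) were also counted. No gene of the whole table had a mean count below 1.06, so a marker at 0 could not have appeared.

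Across roles, 1 of the 50 genes was called: Sostdc1, a secreted antagonist of both pathways, was lower. A call means an adjusted p under 0.05 in the DESeq2 results that the authors deposited, where 44 of the 50 had such a value. Of all 12108 genes with an adjusted p, 0.743% were called, 0.479% lower and 0.264% higher. Without adjustment, 3 of the 49 members with a p were under 0.05, or 6.12%, against 5.39% of all genes. These 3 were Sostdc1 (lower), Wnt2b and Bmp2 (both higher). A share this near the background is not a result about the list as a whole. Fold changes in the table are shrunken towards 0, and unshrunken values were reconstructed from them where they returned the deposited p. The median reconstructed log2 fold change was 0.19 over 48 members and 0.08 over all 13059 genes with such a value.

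**Figure D1:**
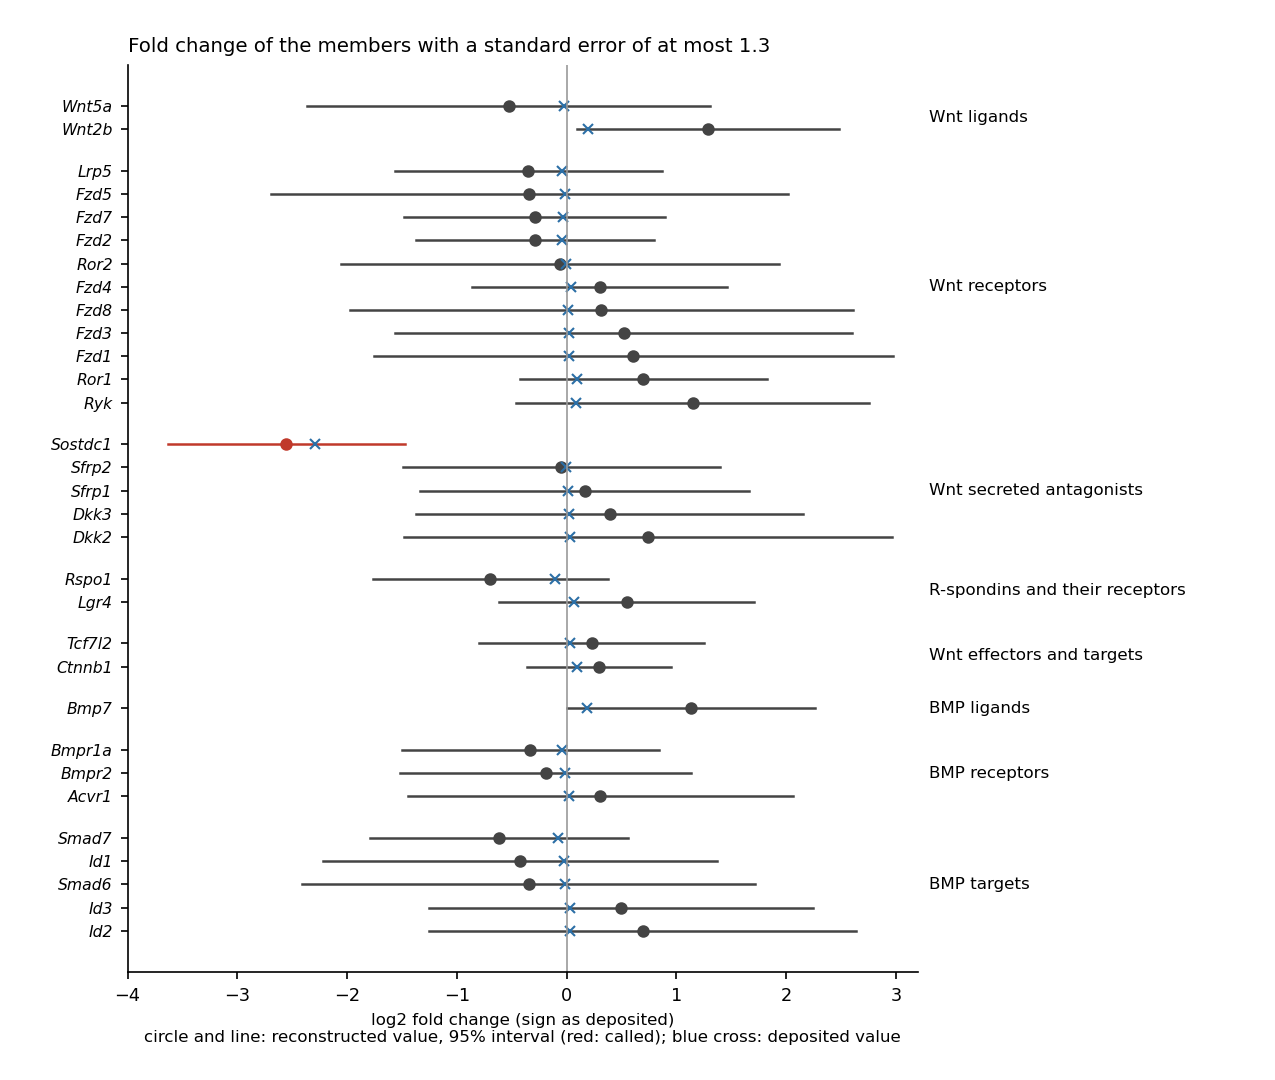
Log2 fold change (x axis, sign as deposited) of the 31 members whose reconstructed value has an SE of at most 1.3, grouped by role; circles and lines are reconstructed values with 95% intervals, red where called, and blue crosses are the authors' deposited values. Sostdc1 at -2.55 is the single called gene, and the other circles lie between -0.70 and 1.28.

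Levels, averaged over both groups, showed which member of each role dominated in this tissue. They are mean normalized counts per kilobase of annotated exon, a scale on which genes of different length can be compared; which isoforms were counted is not given in the sources used here. Among the 9 Wnt ligands, Wnt2b stood first at 71.9 counts per kilobase, 48.1% of the sum of the role, followed by Wnt9a at 24.6; Wnt2 was last at 3.57. The receptors were more even: Fzd2 at 53.9, the co-receptor Lrp5 at 52.1, the atypical receptor kinase Ryk at 48.5 and Fzd7 at 45.4 counts per kilobase. With the median length of coding transcripts in place of the exon union, Lrp5 stood first among the receptors. Among the antagonists, Sostdc1 was highest at 225 counts per kilobase, 52.4% of the sum of the role, ahead of Sfrp2 at 110, a decoy that resembles the ligand-binding part of Frizzled. This order holds for the pooled mean only, because Sostdc1 differed between the groups. With 3 libraries in each group, the reconstructed fold change splits the pooled 225 into about 385 counts per kilobase in the controls and 65.5 in the knockouts, while Sfrp2 would be at 112 and 108.

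Rspo1, a secreted protein that enhances Wnt signalling through Lgr receptors, reached 208 counts per kilobase, while its receptors Lgr4 and Lgr5 stood at 39.2 and 3.94. Ctnnb1, which encodes beta-catenin, had the highest pooled level of all members at 304. The same split puts it at 273 in the controls, below Sostdc1 at about 385, and at 335 in the knockouts. That order in the controls rests on the exon union. With the median length of coding transcripts, the pooled level was 1972 for Ctnnb1 and 225 for Sostdc1. That median was only 800 bases for Ctnnb1, against an exon union of 5192 bases, so the 1972 rests on a short length. The partners of beta-catenin, Tcf7l2 and Lef1, were at 30.0 and 2.93 by the exon union. Bmp7 led the BMP ligands at 75.0 counts per kilobase, 73.7% of the role, ahead of Bmp4 at 20.0. Bmpr1a, a type I receptor, led its role at 48.7. The 4 genes filed as BMP antagonists were scarce: Bambi, a membrane decoy receptor without a kinase, had 15.6 counts per kilobase, Fst (follistatin) 4.35, Nog (noggin) 1.37 and Chrdl1 1.16. This does not hold for all BMP antagonists. Sostdc1, filed with the Wnt antagonists, also restrains BMP signalling. A further 11 BMP antagonists and modulators, given below, had a median mean count of 150, against 13.9 for the 4 genes. Of the BMP targets Id1 was highest at 73.5 counts per kilobase, but with the median transcript length Smad7, an inhibitory SMAD, stood first. No error can be given for the pooled levels, so close neighbours such as Fzd2 and Lrp5 cannot be ordered.

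**Figure D2:**
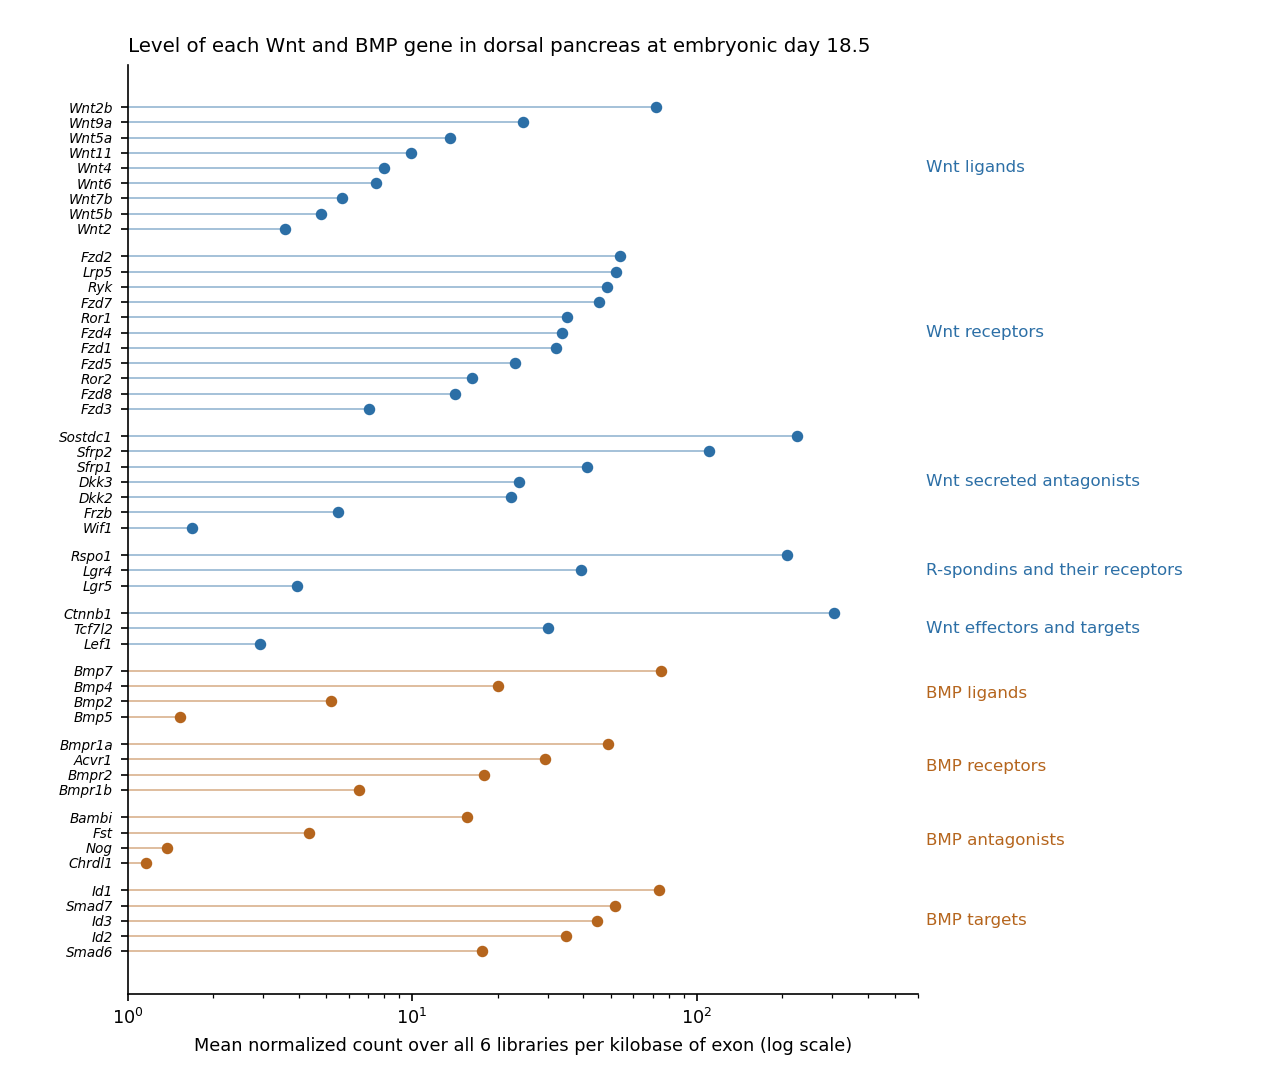
Mean normalized count per kilobase of exon (x axis, log scale) over all 6 libraries for the 50 genes, by role; blue marks Wnt and brown BMP genes. Ctnnb1 at 304, Sostdc1 at 225 and Rspo1 at 208 have the highest pooled values, and the BMP antagonists lie lowest as a role; the place of Sostdc1 would differ between the groups, at about 385 in the controls and 65.5 in the knockouts.

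Sostdc1 (sclerostin domain containing 1, also called Wise or ectodin) binds BMP ligands and the Wnt co-receptors and restrains both pathways. It has been studied in pancreatic islets. The gene (Entrez gene 66042) lies on chromosome 12 from 36314139 to 36318452 on the plus strand (GRCm38), with 1 annotated coding transcript of 2 exons, and no annotated gene overlaps it. Its mean normalized count was 401, the fourth highest of the members. In the authors' deposited table it was 4.91-fold lower, at -2.30 ± 0.58 (log2, posterior SD; p = 3.19e-06, adjusted p = 0.00121). The reconstructed value was -2.55 ± 0.55 (SE), a 5.88-fold difference with a 95% interval from 2.78-fold to 12.4-fold. By deposited value this was the 12th largest fall of the 58 genes called lower, and by p it ranked 32 of 14386 genes.

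The error of Sostdc1 was not unusual for its abundance: Rspo1, with a mean count of 403, had an SE of 0.55 too. The 95% interval of Sostdc1 did not overlap the intervals of 15 members, and it did overlap those of 32, most of which are wide. Sostdc1 is compared here because it was the called member, so some separation follows from that choice. The same share over all genes was not counted, so these counts give no result about the members. Of the other antagonists, 4 had an SE of at most 1.3; the upper end of the Sostdc1 interval, at -1.48, lay below the intervals of Sfrp1 and Dkk3 and met the lower ends of those of Sfrp2 (-1.49) and Dkk2 (-1.48). The reconstructed values of these 4 were -0.05 ± 0.74 (SE) for Sfrp2, 0.16 ± 0.76 for Sfrp1, 0.39 ± 0.90 for Dkk3 and 0.74 ± 1.13 for Dkk2, members of the Sfrp and Dickkopf families. None of them was called (deposited p from 0.519 to 0.942).

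In bulk tissue, fewer cells of a type and less RNA per cell cannot be told apart, and markers of several cell types moved along with Sostdc1. Endocrine markers were lower: 12 of 12 in the table had a negative sign, 4 were called lower and 0 higher, and the median of 9 reconstructed values was -2.63, with a range from -3.56 to -1.12. Sostdc1 lay inside this range, 0.08 ± 0.55 (SE) above that median. Acinar markers had 9 called lower and 0 higher of 12 with an adjusted p and a median of -2.15, with Sostdc1 at 0.40 below it; relative to the endocrine or the acinar median, Sostdc1 was not called (adjusted p = 0.895 and 0.514 after the shift). Pan-epithelial markers had a median of -0.74, with 1 of 12 called lower, and duct markers of -0.83, with 0 of 9 called. Relative to the pan-epithelial median, Sostdc1 was at -1.81 and still called (adjusted p = 0.0391 after the shift). Each median was subtracted as a constant, so its own error is in none of these SEs and p-values. Which cells express Sostdc1 is not in these data, and the part of cell composition in its fall was not tested.

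**Figure D3:**
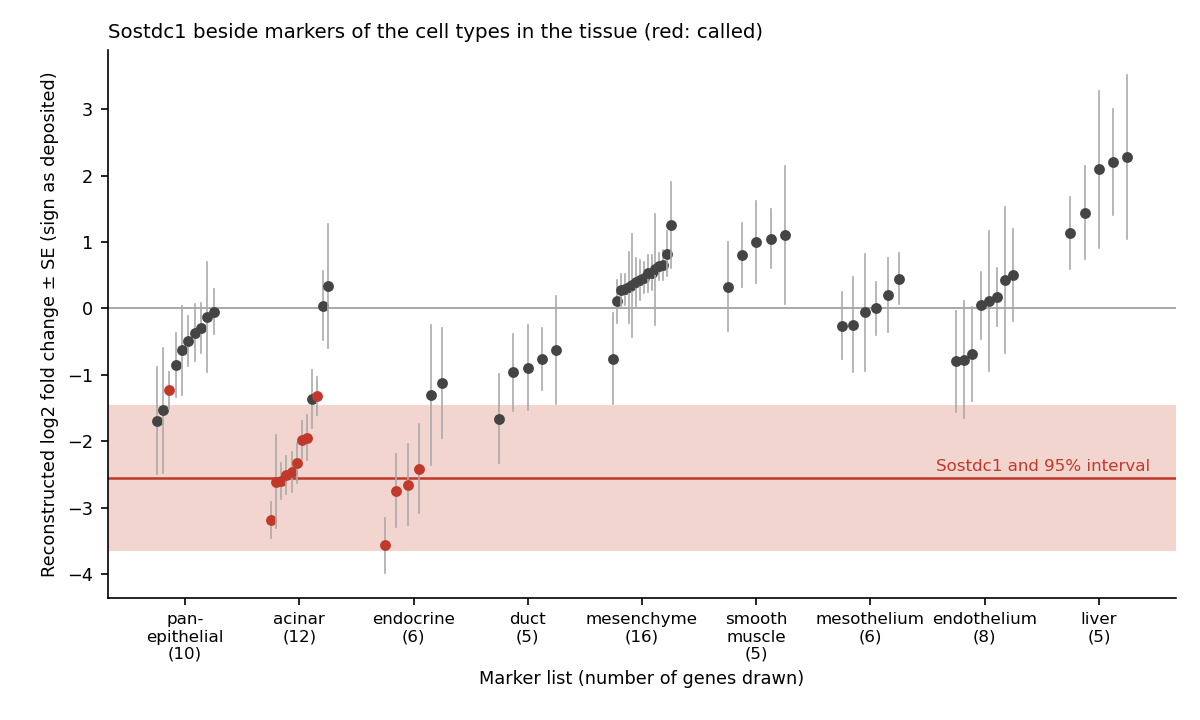
Reconstructed log2 fold change ± SE (y axis, sign as deposited) of 73 marker genes with an SE of at most 1.3, by cell type (x axis), red where called; the red line and band are Sostdc1 and its 95% interval. The endocrine and acinar markers lie around the Sostdc1 line at -2.55, while mesenchyme markers lie mostly above 0.

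The genes around Sostdc1 were examined for the same change. Within 500 kb lie 8 other coding genes, of which 6 were in the table; 0 were called by the authors' DESeq2 test, and 1 was under 0.05 without adjustment. That gene was Tspan13, a tetraspanin 272 kb away with a mean count of 572, at -0.98 ± 0.45 (SE; p = 0.0274 and adjusted p = 0.644 in the authors' deposited table). Bzw2 was at 0.32 ± 0.69 and Ankmy2 at -0.99 ± 0.92 (SE). Ispd, 63.0 kb away, had the most negative value at -1.71 ± 1.04 (SE; p = 0.107 in the authors' deposited table), and Agr2 had a negative sign with no determined size (p = 0.0958 in that deposited table of the authors). In all, 4 of the 6 neighbours had a negative sign and 2 a positive one.

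Among the Wnt ligands, no gene was called. Wnt2b, a ligand of the canonical branch (Entrez gene 22414; chromosome 3, 104945272 to 104961921, minus strand, GRCm38), had a mean count of 302. Its deposited value in the authors' deposited table was 0.20 ± 0.34 (log2, posterior SD; p = 0.0365, adjusted p = 0.711). The reconstructed value was 1.28 ± 0.61 (SE), or 2.44-fold, with a 95% interval from 1.06-fold to 5.57-fold, and it did not pass the adjustment. Wnt5a, the main ligand of the non-canonical branch, was at -0.53 ± 0.94 (SE; p = 0.567 in the authors' deposited table). The other 7 ligands (Wnt2, Wnt4, Wnt5b, Wnt6, Wnt7b, Wnt9a and Wnt11) had mean counts from 8.05 to 81.8 and an SE above 1.3. Their deposited p-values ran from 0.285 to 0.952, and changes of many fold in them were not detectable at this depth.

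None of the 11 receptors was under 0.05 even without adjustment. Fzd2 was at -0.29 ± 0.55 and Fzd7 at -0.29 ± 0.61 (SE), while Fzd4, known from blood vessel growth in the retina, was at 0.30 ± 0.59. Of the 7 Frizzled genes, 4 had a positive and 3 a negative sign. Lrp5 was at -0.35 ± 0.62 (SE). The receptors of the non-canonical branch held the highest values, with Ryk at 1.15 ± 0.82 (SE) and Ror1, a receptor kinase for Wnt5a, at 0.70 ± 0.57, neither under 0.05 in the authors' deposited table (p = 0.169 and 0.224); Ror2 was at -0.06 ± 1.02. The median of the role was 0.30 over 11 genes, less than the SE of each of them.

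Among genes that amplify or carry the Wnt signal, Rspo1 was at -0.70 ± 0.55 (SE) and its receptor Lgr4 at 0.55 ± 0.59, with p = 0.201 and 0.357 in the authors' deposited table. Ctnnb1 had the smallest error of all members, at 0.29 ± 0.33 (SE). Its 95% interval, from -0.36 to 0.95, lies within a 2-fold change either way at the fitted prior scale. A scale 25% smaller would give 1.54 ± 0.69 (SE) and one 25% larger 0.18 ± 0.27, but these values imply p = 0.0267 and 0.503 where the authors' deposited p was 0.380. Tcf7l2, a TCF factor, was at 0.23 ± 0.52 (SE). Lef1, itself a Wnt target, had a mean count of 25.8 and a p of 0.436, and Lgr5, a target as well as a receptor, a mean count of 40.5 and a p of 0.733. None of these genes was called, and Axin2, the usual readout gene of the canonical branch, was not analysed here.

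On the BMP side no gene of 14 with an adjusted p was called. In the authors' deposited table, Bmp7 (mean count 302) had a log2 fold change of 0.19 ± 0.31 (posterior SD; p = 0.0517, adjusted p = 0.781). Its reconstructed value was 1.13 ± 0.58 (SE), or 2.19-fold. Bmp2 had the smaller p of the BMP ligands, 0.00160 (adjusted p = 0.138). Its mean count was only 18.4 and its deposited value 0.03 ± 0.22, a value that does not return the p, so its size is undetermined. Bmp4 had a mean count of 45.0 and a p of 0.853, and Bmp5, at a mean count of 6.15, had no adjusted p.

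None of the 4 BMP receptors was called, with Bmpr1a at -0.33 ± 0.60, the type II receptor Bmpr2 at -0.19 ± 0.68 and Acvr1, a type I receptor, at 0.31 ± 0.89 (SE). Their 95% intervals reached -1.50, -1.51 and 2.06, and that of Bmpr1b, another type I receptor, -2.98. At the fitted prior scale, those of Bmpr1a and Bmpr2 thus lay within a 4-fold change either way, and those of Acvr1 and Bmpr1b did not. The change needed for a call was 4.41-fold for Bmpr1a, 5.35-fold for Bmpr2 and larger for Acvr1 and Bmpr1b. By that limit, a 4-fold change could have gone uncalled in each. The 4 genes filed as BMP antagonists were poorly sized, each with an SE above 1.3. Bambi, with a mean count of 79.1, was at 1.38 ± 1.39 (SE), with p = 0.332 by the authors' DESeq2 test. The others had mean counts from 2.33 to 20.0 and deposited p-values from 0.154 to 0.371. Of the targets, Smad7 was at -0.62 ± 0.60 (SE; p = 0.302 in the authors' deposited table), Id1 at -0.42 ± 0.92, Smad6 at -0.34 ± 1.05, Id3 at 0.49 ± 0.89 and Id2 at 0.70 ± 0.99. The Id genes thus had both signs, and each interval spans 0.

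The precision set what could be seen. At the fitted prior scale and the largest p that was called, a member needed a log2 fold change of 1.19 (Ctnnb1) to be called, and 1.97 for Sostdc1. A 4-fold difference would have sufficed in 5 of the 48 members with a reconstructed value. In the remaining 43, a 4-fold change could have gone uncalled.

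**Figure D4:**
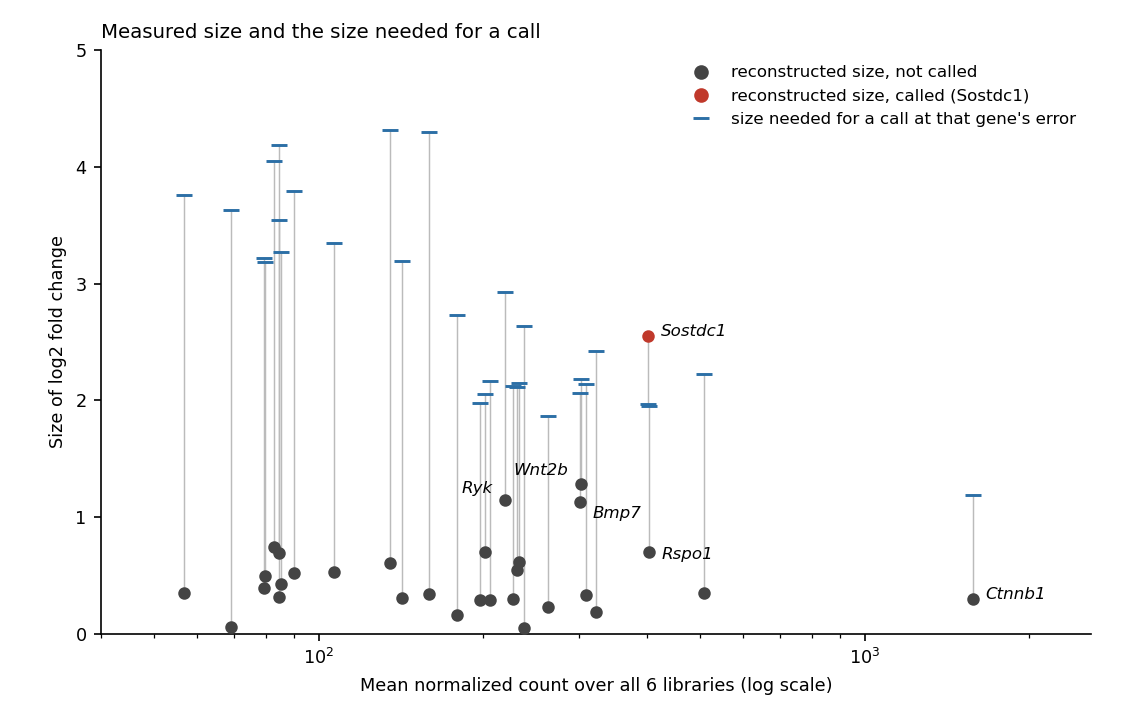
Size of the reconstructed log2 fold change (circles, y axis) and the size needed for a call at each gene's own error (blue bars) against the mean normalized count (x axis, log scale) for the 31 members with an SE of at most 1.3. Only Sostdc1, at 2.55, lies above its bar at 1.97; the circles of Wnt2b and Bmp7 lie below theirs at 2.18 and 2.06.

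Directions of small size depended on the reference. Mesenchyme markers were higher, with a median of 0.44 over 16 genes, 15 of them positive; the authors' DESeq2 test called 0, and 5 were under 0.05 before adjustment; smooth muscle markers had a median of 1.00 over 7. Liver markers had a median of 1.77 over 8 and blood markers of 1.06 over 8. The part of these tissues in the values of the members was not tested. Each median used below was subtracted as a constant, so its own error is not in the adjusted p-values after the shift. Taken relative to the pan-epithelial median, all genes shift by 0.74, the split of calls over all genes goes from 58 lower and 32 higher to 44 lower and 312 higher, and Wnt2b (2.03, adjusted p = 0.0368) and Bmp7 (1.88, adjusted p = 0.0425) are called beside Sostdc1. Relative to the mesenchyme median, which shifts all genes by 0.44 the other way, the split was 117 lower and 34 higher and Sostdc1 was the single member called.

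Other genes of the pathways gave a similar picture. A further list held 146 symbols of Wnt, planar polarity, BMP and activin genes. Some genes stood in it under both of their names (Tnfrsf19 and Troy, Wisp1 and Ccn4, Hjv and Hfe2). Of the symbols, 115 were in the table and 104 had an adjusted p. By the authors' DESeq2 test 0 were called, 7 were under 0.05 before adjustment, and 1 had an adjusted p under 0.1. Those 7 are 6.19% of 113 with a p, against 5.39% of all genes. Rgma, a BMP co-receptor, was at 1.68 ± 0.70 (SE), and Skil, a SMAD co-repressor, at -1.38 ± 0.67, with p = 0.0171 and 0.0404 in the authors' deposited table. Tcf7, a TCF factor, had the smallest p (0.000569, adjusted p = 0.0689) and a positive sign, at a mean count of 23.8 and with no determined size. Gpc3, a glypican, had a positive sign (p = 0.00502 in the authors' deposited table). In that deposited table of the authors, Kremen2, a Dickkopf receptor, had a negative sign (p = 0.0465), as had the polarity cadherin Celsr3 (p = 0.0350) and Gdf15, a distant TGF-beta relative (p = 0.0422). The further BMP antagonists and modulators had a positive sign in 10 of 11, where 8027 of all 14681 genes had one. Of these 11, 0 were under 0.05 even before adjustment. Their median was 0.49, beside a median of 0.44 for mesenchyme markers. Fstl1, the most abundant with a mean count of 3843, was at 0.26 ± 0.21 (SE).

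Promoter sequence was examined because COMPASS complexes act mainly at promoters rich in CpG dinucleotides. RefSeq promoter windows (250 bases before to 50 after a start) were found for 32 of the 50 genes; the other 18, Sostdc1 among them, were not examined. The window with the most CpGs was taken where a gene had several. The motif searched was CG, which reads the same on both strands. In these windows 30 of 32 members (93.8%) had at least 10 CpGs, against 78.3% of 11299 genes of the table, with medians of 28 and 20 CpGs. These counts are a description of the sequence and were not related to a change. The windows of the members ran from 4 CpGs (Bmp5) to 58 (Wnt9a). A pair of ligands is printed to show a CpG-rich and a CpG-poor window: Wnt2b, the Wnt ligand with the highest level and an unadjusted p under 0.05, has 43 CpGs and 79.7% G and C (chr3:104961660-104961959, minus strand), and Bmp5, the scarcest ligand, has 4 CpGs and 43.3% (chr9:75775115-75775414, plus strand). Both are printed 5′ to 3′ in GRCm38.p6, with each CpG in capitals.
Wnt2b: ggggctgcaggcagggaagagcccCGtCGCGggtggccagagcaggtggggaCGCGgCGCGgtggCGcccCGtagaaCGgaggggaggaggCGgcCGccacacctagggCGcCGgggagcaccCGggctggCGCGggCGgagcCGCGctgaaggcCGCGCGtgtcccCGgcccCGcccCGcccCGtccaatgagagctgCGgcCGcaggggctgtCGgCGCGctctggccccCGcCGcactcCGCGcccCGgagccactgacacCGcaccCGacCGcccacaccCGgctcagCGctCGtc
Bmp5: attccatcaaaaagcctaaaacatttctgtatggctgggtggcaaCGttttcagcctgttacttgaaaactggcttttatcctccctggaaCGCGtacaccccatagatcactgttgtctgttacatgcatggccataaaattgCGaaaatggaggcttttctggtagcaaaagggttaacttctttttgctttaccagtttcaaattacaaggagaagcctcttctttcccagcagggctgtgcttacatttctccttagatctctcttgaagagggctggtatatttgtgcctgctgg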

How the data were processed

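The members and all gene lists were chosen with earlier results of these data known. RNA of the dorsal pancreas was sequenced from 3 control and 3 knockout samples, and the submitters' processing notes name Trimmomatic, Salmon, DESeq2 and GRCm38 (mm10). Their versions, the annotation and the model formula were not given in the sources used here. What the authors deposited is 1 table of test results: per gene a mean normalized count (a signal over all libraries), a log2 fold change with its error, and a p-value and adjusted p-value. The depth of each library is unknown. No gene was tested again: a call is the authors' deposited adjusted p under 0.05. Where their p exists without an adjusted p (2278 genes, mean count at most 8.15), no call was possible.

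The deposited log2 fold changes are shrunken towards 0 (92.7% lie within 0.1 of 0). Unshrunken values were reconstructed from value and error under a Cauchy prior and a quadratic likelihood. At a prior scale of 0.31, chosen for the best match, 90.8% of genes with a p came within 0.1 of the z of the deposited p. Only matching genes have a reconstructed value, with its standard error (SE). The arithmetic was tested on simulated data. Levels per kilobase divide the mean count by the union of a gene's exons in GENCODE release M21 (GRCm38). Promoter sequences are RefSeq's (GRCm38.p6). Scripts ran in Python 3.11.15 with pandas 2.3.3 and SciPy 1.17.1.

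Values are given in full for members under 0.05 with or without adjustment, for Sostdc1, and for the member of each role with the highest level per kilobase. Of other pathway genes, those with an unadjusted p under 0.05 are named. Genes outside these rules that are named (other members as examples, neighbours, marker genes) were picked after their values were seen. Alternatives covered the threshold, the genes adjusted over, the low-count limit, the centring and the prior scale.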

Additional observations from a re-analysis of the deposited data

How the results depend on the processing

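No paired analysis was possible because the table holds no values per library; for the same reason no replicate could be left out. Sostdc1 stayed the single called member at an adjusted p under 0.1, with adjustment over every gene with a p, and with adjustment over genes with a mean count of at least 100. At an unadjusted p under 0.05 the members called went from 1 to 3 and the other pathway genes from 0 to 7, or to 1 at an adjusted p under 0.1. Medians by role moved by less than the median SE of their members, a wide margin, with the exceptions given next, whose cause was not tested. The R-spondin role, at -0.64, moved to -0.0078 with deposited values, to 0.11 relative to pan-epithelial markers and to -0.021 with a prior scale 25% larger. Wnt effectors and targets, at 0.23, moved to 0.97 relative to pan-epithelial markers. BMP antagonists, whose median of 4.09 rests on 4 scarce genes with a median SE of 3.39, moved to 0.013 with deposited values and to 0.036 with the larger prior scale. Relative to pan-epithelial markers, values that were negative became positive for Fzd2 (0.46), Rspo1 (0.047), Bmpr1a (0.41) and Id1 (0.32); relative to mesenchyme markers Ctnnb1 became -0.15. These turns follow from the constant subtracted. So do turns of sign in medians that stayed within the margin. Relative to pan-epithelial markers, BMP receptors went from -0.22 to 0.52 and BMP targets from -0.34 to 0.40. Relative to mesenchyme markers, all members went from 0.19 to -0.25 and the Wnt receptors from 0.30 to -0.14, among others. Without any shift, the BMP target median was 0.035 when limited to an SE of at most 1. Relative to endocrine markers, chosen after seeing the data, Sostdc1 was at 0.078, and relative to acinar markers at -0.40, uncalled in both. Reconstructed sizes and errors rest on the fitted prior scale, which returned the deposited p for 90.8% of genes. A scale 25% larger did so for 14.6% of genes and 5 of the 50 members, and one 25% smaller for 0.931%, with a value for 4 members only. At the larger scale the median of all members went from 0.19 to 0.013, that of the Wnt receptors from 0.30 to 0.028, Rspo1 from -0.70 to -0.28, Fzd2 from -0.29 to -0.091 and Bambi from 1.38 ± 1.39 (SE) to 0.093 ± 0.36, and a 4-fold change would have sufficed for a call in 49 members in place of 5. Sostdc1 stayed at -2.55 with the larger and -2.56 with the smaller scale. By the median transcript length, also chosen after seeing the data, Bmpr1a held 72.7% of its role in place of 47.5%, and Id1 19.4% in place of 33.1%.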
